A study of Mus musculus with 9 samples.

Results

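The collagen genes, which encode the main structural proteins of the matrix between cells, were followed in hippocampal RNA of 12 to 14 week old C57BL/6 mice on 9 Affymetrix arrays. The genes were chosen by symbol, as Col, a number, a and a number, leaving out Col8a1, Col8a2 and Col9a3, and no measured value entered the choice. Of 44 such symbols in the gene table, 3 were left out in this way, and Col7a1 was read only by a probe set that names a second gene. The remaining 40 genes, of 18820 genes measured, comprised 11 fibrillar collagens, 8 basement membrane collagens and 21 other collagens. Mice given Maresin 1, a lipid mediator made from docosahexaenoic acid, ahead of a surgical tibia fracture supplied 3 arrays, and mice with the fracture surgery alone supplied 3 more. The 3 control arrays came from mice for which the labels name no treatment and no sampling time. The hippocampi of operated mice were taken 72 h after surgery, and the dose and route of Maresin 1, the anaesthesia and the sex of the mice are not stated in the labels. All groups are of the same strain, tissue and age range. The titles call the arrays of a group biological replicates, so differences were judged against the spread between mice within groups. That spread was pooled over the 3 groups and moderated over all genes.

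Collagen chains wind together into a triple helix, and the classes differ in what the helices build. Fibrillar collagens pack into the tensile fibres of the meninges and the outer coat of vessels, whereas type IV collagen forms the sheet of the basement membrane on which endothelial cells, pericytes and the glia limitans rest. Fibril-associated collagens decorate fibres, beaded filament (type VI) collagens link fibres to cells, and transmembrane collagens sit in the plasma membrane, some of them in neurons.

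The deposited values were linear intensities. Their array medians lay between 54.1 and 100 (1.85-fold apart), so the arrays were quantile normalised. All levels below are log2 of the normalised signal plus 16, and differences between groups are on the same scale. A level depends on each probe set's own sensitivity, so levels of different genes are not set against each other. Olfactory receptor genes, which the brain largely lacks, served as a measure of background. Averaged over the arrays, 95% of 990 such genes lay under a level of 5.86. Above it stood 30 of the 40 collagens (75%), comprising 8 fibrillar, 4 basement membrane and 18 other collagens, beside 71% of all genes. All 12 hippocampal neuron markers stood above background, and their summed signal kept to 25297 to 25842 in the Maresin 1 arrays, 24812 to 25592 in the surgery arrays and 25090 to 26206 in the control arrays. The list includes genes of neurons in general, such as Snap25 and Rbfox3, and bright genes weigh most in a sum. The sum therefore cannot by itself tell hippocampus from other brain regions. The control arrays did not form one set: the summed signal of 17 choroid plexus epithelium markers was 18795 and 23436 in control replicates 2 and 3 and 1479 in control replicate 1, against 1772 to 1918 in the Maresin 1 arrays and 1548 to 1695 in the surgery arrays. In such bulk RNA, fewer cells of a type and less RNA per cell cannot be told apart.

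No collagen gene passed the test in any of the 3 comparisons, which were made with limma over all 18820 genes with Benjamini-Hochberg adjustment and a threshold of 0.05. For surgery against control, 0 of 40 collagens were called beside 0% of all genes, and the lowest adjusted p of a collagen was 0.772. Leaving out control replicate 1 keeps only control replicates 2 and 3, the control arrays with high choroid plexus markers. In that setting 169 of 18820 genes were called in this comparison, and 0 of 40 collagens. So small a share of all genes was called that 0 among 40 does not set the collagens apart. At an unadjusted p under 0.05 the count was 1 of 40 (2.5%), beside 6.21% of all genes. In the comparison of Maresin 1 with surgery and surgery alone, 0 of 40 were called beside 0% of all genes, the lowest adjusted p was 0.859, and 0 of 40 had an unadjusted p under 0.05, beside 5.66% of all genes. For Maresin 1 with surgery against control, 0 of 40 were called beside 0.085% of all genes (16 genes, and 245 of 18820 without control replicate 1). The lowest adjusted p of a collagen there was 0.312, and 2 of 40 (5%) had an unadjusted p under 0.05, beside 11.5% of all genes. The 3 comparisons share arrays and are not independent of each other.

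The 95% intervals of the differences were narrow for most collagens. For surgery against control the fitted differences ran from -0.15 (Col4a3) to 0.22 (Col25a1), and all 40 of the 95% intervals lay within 0.5 on the log2 scale, a 1.41-fold change, in either direction. Between Maresin 1 with surgery and surgery they ran from -0.32 (Col1a2) to 0.17 (Col6a3), and 39 of 40 intervals lay within that bound, the exception being Col1a2. Between Maresin 1 with surgery and control they ran from -0.30 (Col1a2) to 0.31 (Col6a3), with 37 of 40 intervals within it. Of the 30 collagens above background, 30, 29 and 27 had intervals within it, in the order of the comparisons. A narrow interval for a gene at or near background does not exclude a change of that size. The values also depend on the added constant: for Col6a2, surgery minus control was 0.25 with 1 added and 0.13 with 64. Over all 9 arrays a collagen gene's highest and lowest levels differed by a median of 0.36, from 0.11 for Col15a1 to 0.73 for Col10a1.

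**Figure D1:**
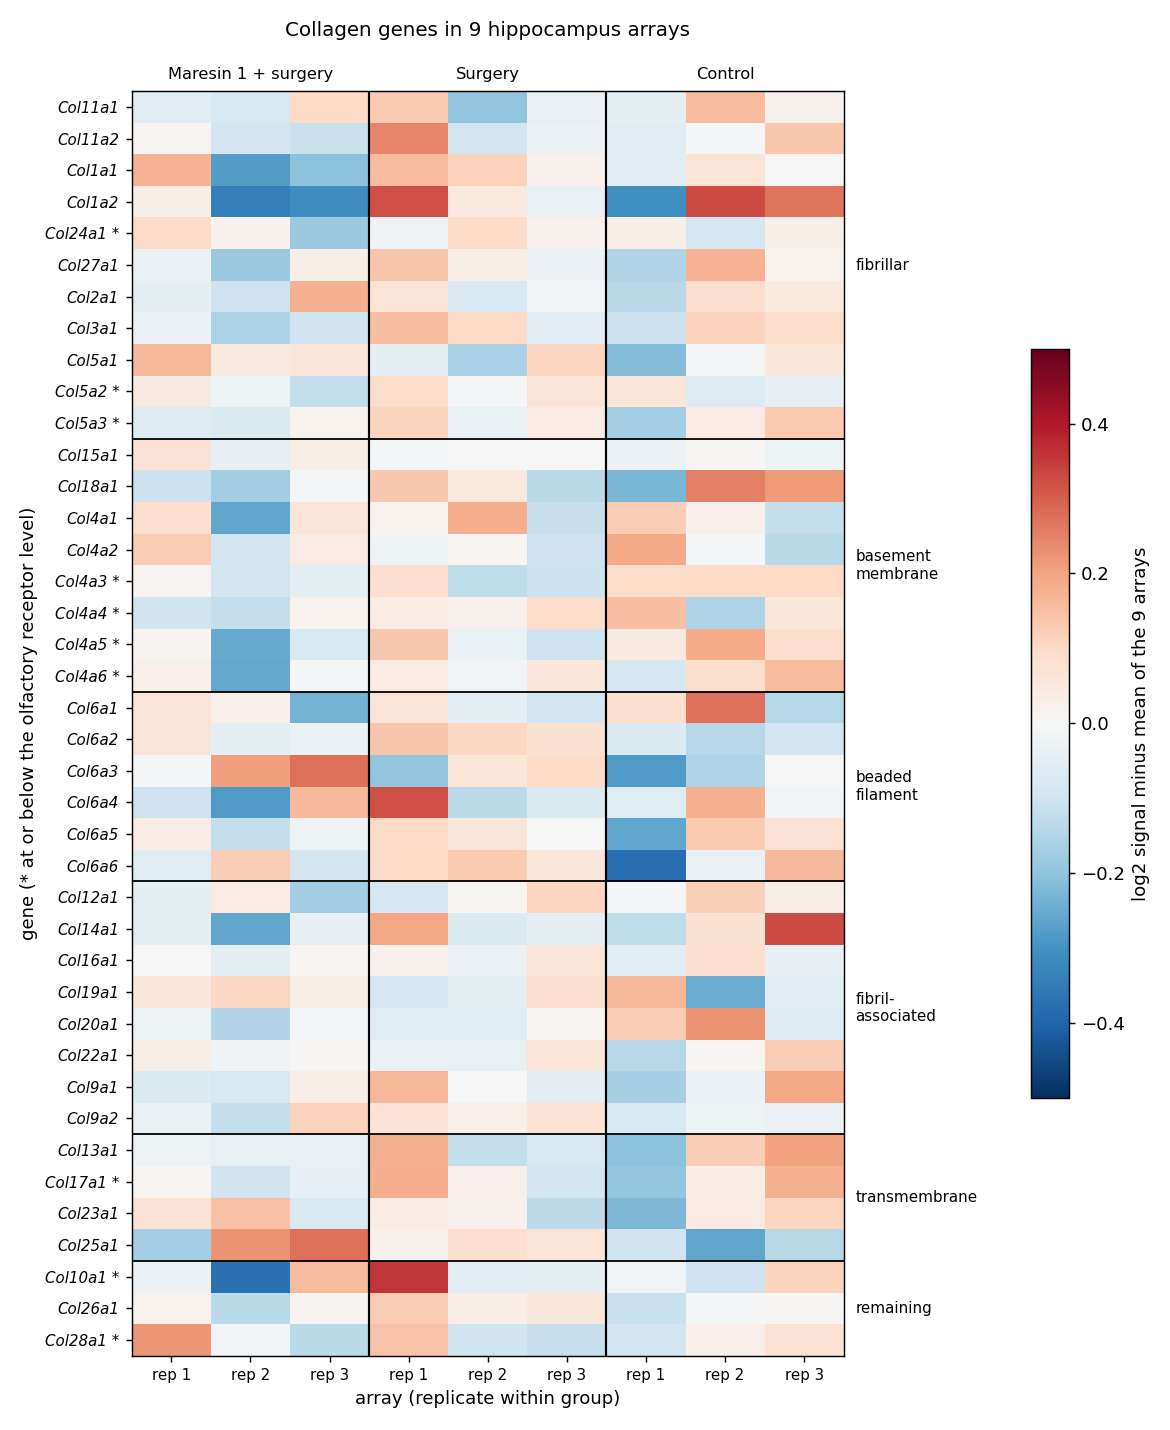
Level of each of the 40 collagen genes (rows, by class) in each of the 9 arrays (columns), as the log2 difference from the gene's mean over all arrays; an asterisk marks genes at or below the olfactory receptor level. Maresin 1 replicate 2 held the lowest level for 14 of the 40 genes and control replicate 1 for 13, and no column group differs from the others throughout.

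Fibrillar collagens are described first. Col1a1, which encodes a chain of type I collagen, the main collagen of meninges and vessel adventitia, had levels of 6.98, 6.53 and 6.61 in the Maresin 1 arrays, 6.97, 6.93 and 6.83 in the surgery arrays and 6.76, 6.88 and 6.81 in the control arrays. Col1a2, which encodes the partner chain of type I collagen, had levels of 7.09, 6.71 and 6.74 in the Maresin 1 arrays, 7.38, 7.11 and 7.02 in the surgery arrays and 6.75, 7.38 and 7.32 in the control arrays. Col3a1, the chain of type III collagen found with type I in distensible tissue, had levels of 6.28, 6.15 and 6.21 in the Maresin 1 arrays, 6.46, 6.41 and 6.25 in the surgery arrays and 6.20, 6.42 and 6.39 in the control arrays. Maresin 1 replicates 2 and 3 were the lowest of the 9 arrays for Col1a1 and Col1a2 and lay below every surgery array for Col3a1, while Maresin 1 replicate 1 stood above at least 1 surgery array in each gene, so the groups overlapped. The difference between Maresin 1 with surgery and surgery was -0.32 (SE 0.16, 95% interval -0.67 to 0.03, adjusted p = 0.859) for Col1a2. It was -0.20 (SE 0.11, 95% interval -0.45 to 0.05, adjusted p = 0.859) for Col1a1 and -0.16 (SE 0.10, 95% interval -0.37 to 0.05, adjusted p = 0.864) for Col3a1. All 3 pointed to lower levels with Maresin 1 and none passed the test.

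For surgery against control the same genes differed by 0.02 (Col1a2), 0.09 (Col1a1) and 0.03 (Col3a1), and the control arrays themselves spread widely, since Col1a2 stood at 6.75 in control replicate 1 and at 7.38 and 7.32 in replicates 2 and 3. In the deposited intensities, before any normalisation, Col1a2 read 121, 79.0 and 102 in the Maresin 1 arrays, 104, 136 and 128 in the surgery arrays and 118, 128 and 130 in the control arrays. Control replicate 1 was the lowest control array there as well, and the gap to the other control arrays was wider after the arrays were brought to one distribution.

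The 250 bases upstream of the annotated start are shown for Col1a2 and Col3a1, which with Col1a1 had the most negative fibrillar differences between the operated groups; the table of promoters holds no window for Col1a1. The sequences are from RefSeq (GRCm38.p6), at chr6:4505368-4505617 on the plus strand for Col1a2 and chr1:45311288-45311537 on the plus strand for Col3a1, 5′ to 3′, with matches to the searched motifs in capitals.
Col1a2: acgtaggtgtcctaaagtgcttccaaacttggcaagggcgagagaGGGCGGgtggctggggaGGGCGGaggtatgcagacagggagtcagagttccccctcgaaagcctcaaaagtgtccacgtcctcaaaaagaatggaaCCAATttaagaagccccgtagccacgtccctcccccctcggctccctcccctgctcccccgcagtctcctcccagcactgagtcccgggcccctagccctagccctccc
Col3a1: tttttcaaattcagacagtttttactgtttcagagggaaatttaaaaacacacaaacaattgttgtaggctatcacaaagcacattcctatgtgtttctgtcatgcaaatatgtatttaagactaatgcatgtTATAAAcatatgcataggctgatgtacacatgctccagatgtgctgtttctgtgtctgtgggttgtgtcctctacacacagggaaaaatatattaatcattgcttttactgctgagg
The motifs searched, on both strands, were the box with the letters CCAAT, the GC box with the letters GGGCGG and the TATA box with the letters TATAAA. The matches shown do not overlap each other. The Col1a2 window holds a CCAAT match and 2 GC box matches, and the Col3a1 window holds a TATA match. Of 32851 windows of the same length in the table, 33.8% hold CCAAT, 32.7% GGGCGG and 12.4% TATAAA. Of the 35 windows of the 32 collagens that have one, 12 (34.3%), 19 (54.3%) and 5 (14.3%) hold them in that order. These matches describe the letters of the windows alone.

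Col2a1, a chain of cartilage collagen, had levels of 6.47, 6.41 and 6.69 in the Maresin 1 arrays, 6.59, 6.44 and 6.50 in the surgery arrays and 6.37, 6.60 and 6.56 in the control arrays. Col5a1, a chain of type V collagen that sets fibril diameter, had levels of 6.23, 6.11 and 6.12 in the Maresin 1 arrays, 6.02, 5.90 and 6.17 in the surgery arrays and 5.85, 6.06 and 6.11 in the control arrays. Col11a1, a chain of the cartilage fibril nucleator type XI collagen, had levels of 6.74, 6.71 and 6.89 in the Maresin 1 arrays, 6.92, 6.59 and 6.75 in the surgery arrays and 6.74, 6.94 and 6.81 in the control arrays. The groups overlapped in each, and for Col5a1 a second probe set gave differences of opposite sign to the chosen one in both comparisons of Maresin 1 arrays (-0.08 against 0.12 for Maresin 1 with surgery minus surgery). Col11a2, its partner chain, had levels of 6.17, 6.07 and 6.06 in the Maresin 1 arrays, 6.41, 6.07 and 6.14 in the surgery arrays and 6.12, 6.16 and 6.30 in the control arrays. Col27a1, a fibrillar collagen of cartilage, had levels of 6.29, 6.13 and 6.35 in the Maresin 1 arrays, 6.46, 6.35 and 6.29 in the surgery arrays and 6.17, 6.49 and 6.33 in the control arrays. Both overlapped between groups as well. Col24a1, Col5a2 and Col5a3 had mean levels at or below the olfactory receptor level, at 5.52 to 5.80, 5.38 to 5.60 and 5.65 to 5.95 over the 9 arrays.

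Over the 11 fibrillar genes the median difference was 0.03 for surgery against control (9 higher, 2 lower), -0.08 for Maresin 1 with surgery against surgery (3 higher, 8 lower) and -0.05 for Maresin 1 with surgery against control (2 higher, 9 lower). Without control replicate 1 the median for surgery against control turned to -0.05 (3 higher, 8 lower), and that for Maresin 1 with surgery against control was -0.12 (3 higher, 8 lower). Over all genes the medians were 0.02, -0.02 and 0, and 41.6%, 58.3% and 51% of genes were lower. These are descriptions with no test of the class.

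Of the basement membrane collagens, 4 stood above background. Col4a1, a chain of the type IV collagen of every vessel wall, had levels of 7.01, 6.66 and 6.99 in the Maresin 1 arrays, 6.94, 7.11 and 6.81 in the surgery arrays and 7.05, 6.95 and 6.81 in the control arrays. Col4a2, its partner in the same helix, had levels of 7.63, 7.41 and 7.54 in the Maresin 1 arrays, 7.48, 7.51 and 7.40 in the surgery arrays and 7.69, 7.49 and 7.37 in the control arrays. Col15a1, which lies between basement membrane and fibrils, had levels of 6.71, 6.60 and 6.66 in the Maresin 1 arrays, 6.63, 6.63 and 6.63 in the surgery arrays and 6.60, 6.64 and 6.61 in the control arrays. The groups overlapped in all 3 genes, and Col15a1 had the narrowest range of any collagen. Col18a1, the source of endostatin, had levels of 5.86, 5.79 and 5.95 in the Maresin 1 arrays, 6.10, 6.01 and 5.83 in the surgery arrays and 5.73, 6.22 and 6.18 in the control arrays. Control replicate 1 was the lowest array for Col18a1 and control replicates 2 and 3 the highest. The difference for surgery against control was 0.02 (SE 0.12, 95% interval -0.24 to 0.27, adjusted p = 0.991) for Col4a1 and -0.05 (SE 0.10, 95% interval -0.26 to 0.16, adjusted p = 0.954) for Col4a2. For Maresin 1 with surgery against surgery it was -0.07 (SE 0.12, 95% interval -0.32 to 0.19, adjusted p = 0.951) for Col4a1 and 0.06 (SE 0.10, 95% interval -0.15 to 0.27, adjusted p = 0.944) for Col4a2.

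Col4a3, Col4a4, Col4a5 and Col4a6, the chains best known from kidney and other specialised basement membranes, had mean levels at or below the olfactory receptor level. Their levels over the 9 arrays were 5.39 to 5.61, 5.31 to 5.62, 5.46 to 5.89 and 5.10 to 5.52. Several cases without overlap between groups were in these dim genes. Col4a3 was lower in the surgery arrays, and in the Maresin 1 arrays, than in every control array, Col4a4 was lower in every Maresin 1 array than in every surgery array, and Col4a5 was lower in every Maresin 1 array than in every control array. The size was -0.15 for Col4a3 with surgery against control, -0.12 for Col4a4 with Maresin 1 against surgery, and -0.21 for Col4a5 with Maresin 1 against control. At this signal the probe sets are not separated from background, and none passed the test.

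The 8 basement membrane genes had a median difference of -0.04 for surgery against control (3 higher, 5 lower), -0.08 for Maresin 1 with surgery against surgery (3 higher, 5 lower) and -0.11 for Maresin 1 with surgery against control (2 higher, 6 lower). The last value was -0.02 when only the genes above background were used.

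The beaded filament collagens came next. Col6a1, a chain of type VI collagen, had levels of 7.24, 7.20 and 6.94 in the Maresin 1 arrays, 7.25, 7.13 and 7.08 in the surgery arrays and 7.26, 7.45 and 7.04 in the control arrays. Col6a2, its partner, had levels of 6.45, 6.33 and 6.35 in the Maresin 1 arrays, 6.52, 6.48 and 6.46 in the surgery arrays and 6.32, 6.24 and 6.29 in the control arrays. Col6a3, the long chain that carries the endotrophin fragment, had levels of 6.21, 6.42 and 6.49 in the Maresin 1 arrays, 6.01, 6.27 and 6.31 in the surgery arrays and 5.93, 6.06 and 6.21 in the control arrays. The Col6a2 groups did not overlap in any comparison, with surgery highest, Maresin 1 with surgery between and control lowest. Col6a2 differed by 0.21 (SE 0.08, 95% interval 0.03 to 0.39, adjusted p = 0.772) for surgery against control. Its unadjusted p was 0.0286, the only collagen under 0.05 there.

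Col6a3 differed by 0.31 (SE 0.12, 95% interval 0.05 to 0.56, adjusted p = 0.321) for Maresin 1 with surgery against control, but its Maresin 1 and control levels overlapped. Over 19 alternative settings this value ranged from 0.19 to 0.44. Col6a4, a chain related to Col6a3, had levels of 6.73, 6.55 and 7.00 in the Maresin 1 arrays, 7.16, 6.71 and 6.77 in the surgery arrays and 6.78, 7.02 and 6.82 in the control arrays. Col6a5, likewise related to Col6a3, had levels of 5.96, 5.81 and 5.90 in the Maresin 1 arrays, 6.02, 5.99 and 5.93 in the surgery arrays and 5.67, 6.05 and 5.99 in the control arrays. Col6a6 had levels of 6.05, 6.24 and 6.02 in the Maresin 1 arrays, 6.21, 6.24 and 6.17 in the surgery arrays and 5.73, 6.08 and 6.27 in the control arrays. The groups overlapped in these 3 genes. For Maresin 1 with surgery against control the second probe sets of Col6a5 and Col6a6 gave signs opposite to the chosen ones, at 0.16 against -0.02 and at -0.02 against 0.08. The 6 beaded filament genes had a median difference of 0.10 for surgery against control (5 higher, 1 lower), -0.10 for Maresin 1 with surgery against surgery (1 higher, 5 lower) and 0.03 for Maresin 1 with surgery against control. The first of these depends on which control arrays enter. Without control replicate 1 it was -0.01, with 3 genes higher and 3 lower, and the last was -0.09. With control replicate 1 as the only control the first was 0.22 and the last 0.14.

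**Figure D2:**
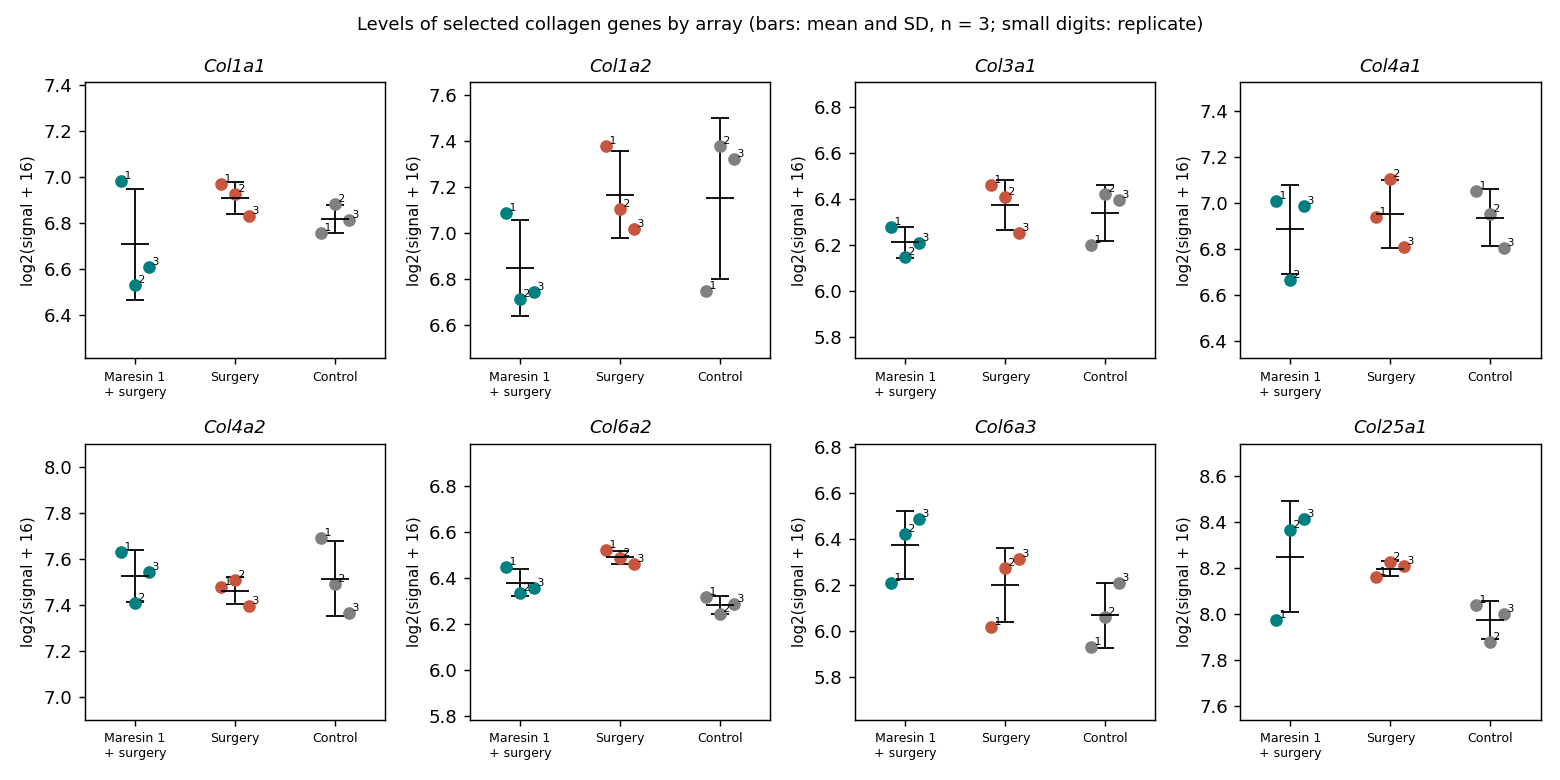
Normalised level (log2 of signal plus 16, vertical axis) of selected collagens in each array, with Maresin 1 with surgery left, surgery in the middle and control right; points are arrays and bars give the mean and SD of 3 arrays. For Col6a2 the surgery arrays stood at 6.46 to 6.52 and the control arrays at 6.24 to 6.32, while for Col1a2 the control arrays ran from 6.75 to 7.38.

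Among fibril-associated collagens no group difference passed the test. Col12a1, which coats type I fibrils, had levels of 6.60, 6.69 and 6.48 in the Maresin 1 arrays, 6.57, 6.66 and 6.76 in the surgery arrays and 6.64, 6.77 and 6.68 in the control arrays. Col14a1, a relative found on fibrils, had levels of 5.93, 5.72 and 5.94 in the Maresin 1 arrays, 6.17, 5.91 and 5.93 in the surgery arrays and 5.85, 6.06 and 6.31 in the control arrays. Col16a1 had levels of 6.09, 6.04 and 6.10 in the Maresin 1 arrays, 6.11, 6.06 and 6.15 in the surgery arrays and 6.04, 6.17 and 6.05 in the control arrays. The groups overlapped in all 3. Col19a1, which in mouse hippocampus is made by interneurons and is needed for inhibitory synapses, had levels of 6.32, 6.37 and 6.30 in the Maresin 1 arrays, 6.19, 6.22 and 6.35 in the surgery arrays and 6.43, 6.02 and 6.21 in the control arrays. Col20a1 had levels of 7.64, 7.52 and 7.66 in the Maresin 1 arrays, 7.60, 7.60 and 7.67 in the surgery arrays and 7.79, 7.88 and 7.60 in the control arrays. Col22a1, a collagen of myotendinous junctions, had levels of 6.01, 5.96 and 5.99 in the Maresin 1 arrays, 5.95, 5.95 and 6.05 in the surgery arrays and 5.84, 5.99 and 6.10 in the control arrays. The groups overlapped here as well. A second, dimmer probe set of Col20a1 gave -0.26, against -0.13 for the chosen one, for surgery against control, and 0.06, against -0.02, for Maresin 1 with surgery minus surgery.

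Col9a1, a chain of type IX collagen of cartilage fibrils, had levels of 6.17, 6.16 and 6.27 in the Maresin 1 arrays, 6.40, 6.24 and 6.19 in the surgery arrays and 6.07, 6.21 and 6.43 in the control arrays. Col9a2, its partner chain, had levels of 6.08, 5.99 and 6.22 in the Maresin 1 arrays, 6.18, 6.13 and 6.18 in the surgery arrays and 6.03, 6.08 and 6.07 in the control arrays. The Col9a2 surgery arrays all stood above the control arrays, with a difference of 0.10 (SE 0.09, 95% interval -0.09 to 0.30, adjusted p = 0.884), but its Maresin 1 arrays overlapped both. The 8 genes had a median difference of 0.01 for surgery against control, -0.05 for Maresin 1 with surgery against surgery (2 higher, 6 lower) and -0.02 for Maresin 1 with surgery against control. Without control replicate 1 the values against control were -0.05 and -0.09.

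Transmembrane collagens include Col25a1, a membrane collagen of neurons whose shed ectodomain, CLAC, collects in amyloid plaques, and it had levels of 7.97, 8.36 and 8.41 in the Maresin 1 arrays, 8.16, 8.23 and 8.21 in the surgery arrays and 8.04, 7.88 and 8.00 in the control arrays. All 3 surgery arrays were above all 3 control arrays, and 2 of the 3 Maresin 1 arrays were above them too, with Maresin 1 replicate 1 among the control levels. The difference was 0.22 (SE 0.10, 95% interval -0.00 to 0.45, adjusted p = 0.794) for surgery against control and 0.28 (SE 0.10, 95% interval 0.05 to 0.50, adjusted p = 0.312) for Maresin 1 with surgery against control. Over 19 alternative settings the second value ranged from 0.20 to 0.42, and its adjusted p fell no lower than 0.071.

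Col13a1, which has a part in the neuromuscular junction, had levels of 6.20, 6.18 and 6.18 in the Maresin 1 arrays, 6.40, 6.10 and 6.14 in the surgery arrays and 6.02, 6.34 and 6.42 in the control arrays. Col23a1 had levels of 7.14, 7.21 and 6.99 in the Maresin 1 arrays, 7.10, 7.08 and 6.93 in the surgery arrays and 6.84, 7.10 and 7.17 in the control arrays. Neither separated any pair of groups. Col17a1, the hemidesmosome collagen, had a mean at or below background and ranged over 5.49 to 5.87.

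Of the remaining collagens, Col26a1 had levels of 6.60, 6.45 and 6.60 in the Maresin 1 arrays, 6.71, 6.62 and 6.64 in the surgery arrays and 6.48, 6.58 and 6.59 in the control arrays. The surgery arrays exceeded the control arrays and the Maresin 1 arrays throughout, by 0.11 over control, while the difference of Maresin 1 with surgery from surgery was -0.11. Col10a1, the collagen of hypertrophic cartilage, and Col28a1 had means at or below background, with ranges of 5.04 to 5.77 and 5.62 to 5.98. The other collagens had a median difference of 0.03 for surgery against control (15 higher, 6 lower), -0.07 for Maresin 1 with surgery against surgery (6 higher, 15 lower) and -0.01 for Maresin 1 with surgery against control (10 higher, 11 lower). Without control replicate 1 the first turned to -0.04 (8 higher, 13 lower) and the last was -0.07 (5 higher, 16 lower).

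**Figure D3:**
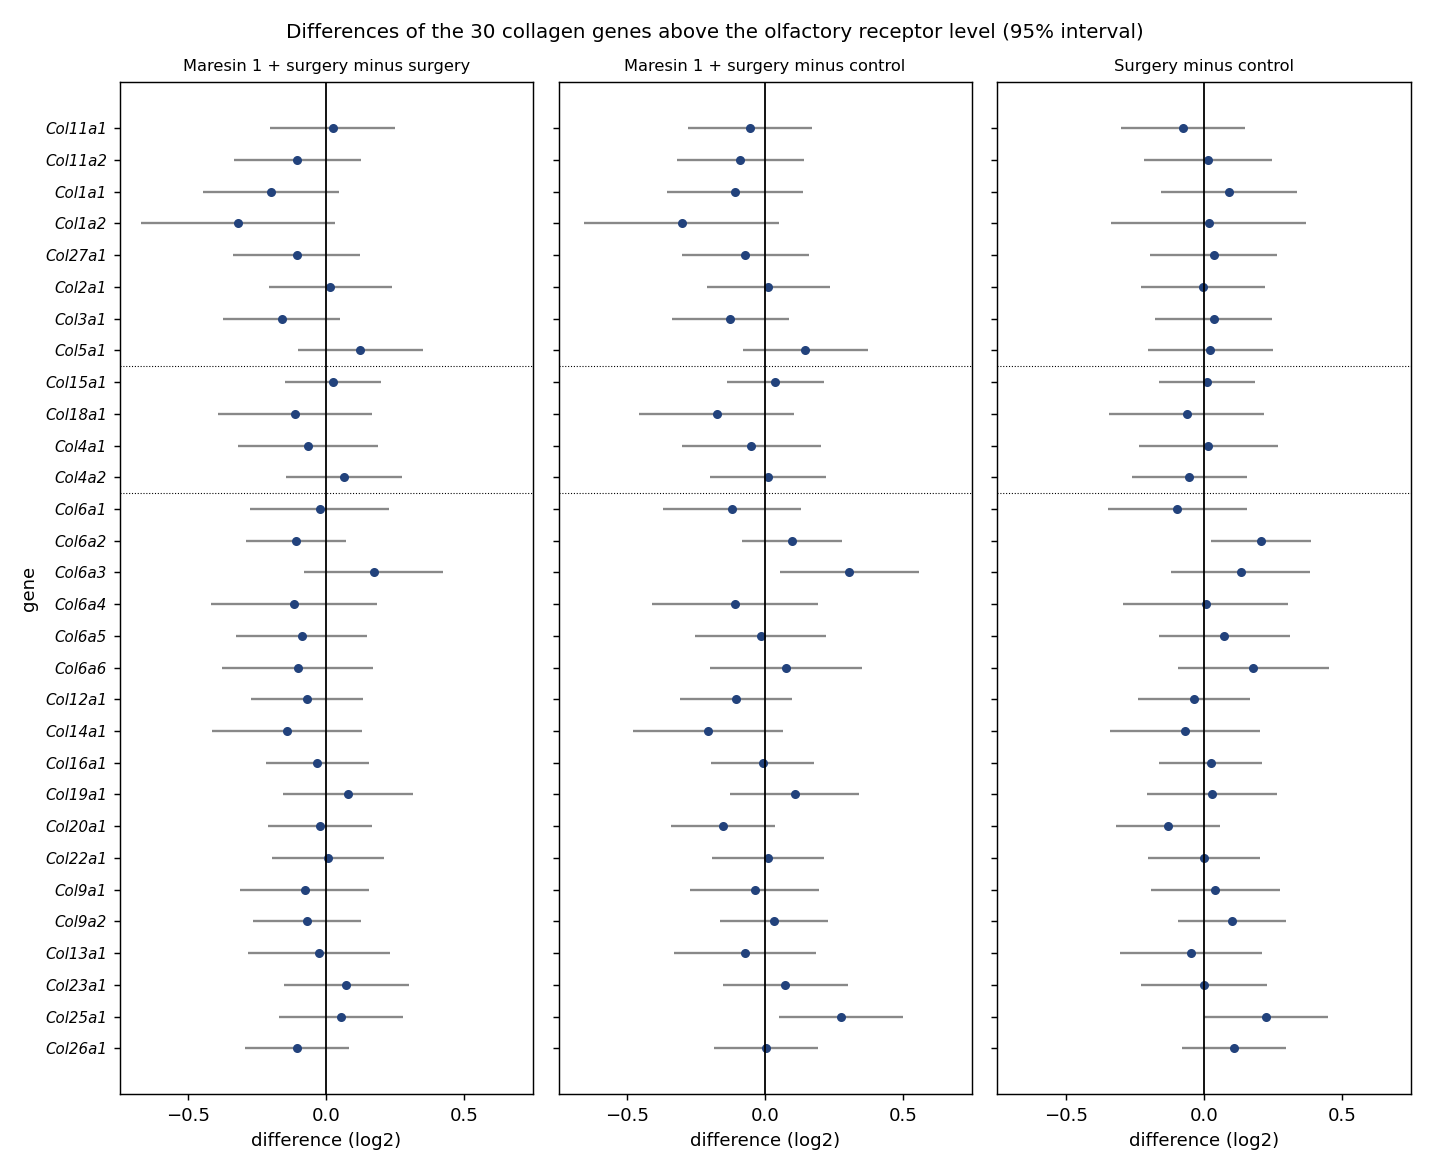
Fitted difference on the log2 scale (horizontal axis) with its 95% interval for each collagen above the olfactory receptor level (vertical axis), in panels for the 3 comparisons. The interval of Col1a2 for Maresin 1 with surgery minus surgery, from -0.67 to 0.03, is the widest in that panel.

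Groups without overlap were counted for all 40 genes beside the rate over all genes. For surgery against control it held for 5 of 40 (12.5%; Col6a2, Col9a2, Col25a1 and Col26a1 higher and Col4a3 lower), beside 11.5% of all genes. Between Maresin 1 with surgery and surgery it held for 3 of 40 (7.5%; Col4a4, Col6a2 and Col26a1, all lower), beside 13% of all genes. Between Maresin 1 with surgery and control it held for 3 of 40 (7.5%; Col6a2 higher, Col4a3 and Col4a5 lower), beside 14.3% of all genes. The collagen counts were thus near or under the rate of all genes.

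Arrays of the same group differed from each other in the summed picture of each class. The mean deviation of the 11 fibrillar genes from their own means was 0.03, -0.12 and -0.06 in the Maresin 1 arrays, 0.12, -0.02 and 0 in the surgery arrays and -0.10, 0.07 and 0.07 in the control arrays. For the 8 basement membrane genes it was 0.02, -0.16 and 0 in the Maresin 1 arrays, 0.05, 0.01 and -0.05 in the surgery arrays and 0.03, 0.06 and 0.04 in the control arrays. For the 990 olfactory receptor genes it was highest in surgery replicate 1, at 0.07, and lowest in control replicate 1, at -0.05. How far this shift of background genes enters the collagen scores was not tested. Control replicate 1 stood apart from the other control arrays in the mean of the fibrillar genes. In the mean of the basement membrane genes the control arrays lay close together, but single genes went opposite ways. Control replicates 2 and 3 were both above replicate 1 in 5 of the 8 and both below it in 3. Their differences from replicate 1 were 0.48 and 0.44 for Col18a1 and -0.20 and -0.33 for Col4a2. Both of control replicates 2 and 3 exceeded replicate 1 in 9 of 11 fibrillar genes and in 29 of 40 collagens, beside 39.5% of all genes. They did so in 17 of 17 choroid plexus epithelium markers and in 16 of 20 markers of meningeal and vascular fibroblasts, the cells that make most fibrillar collagen. Outside the lists of the coverings the same held for 9 of 9 ependymal and 8 of 8 astrocyte markers. It held for 48.6% of the olfactory receptor genes. Vessel markers ran otherwise. Control replicates 2 and 3 were both higher than replicate 1 in 2 of 14 endothelial markers and both lower in 8. For pericyte and smooth muscle markers the counts were 3 and 7 of 14. None of the choroid or fibroblast markers was at 0 in any array, and the part of choroid plexus or meninges in the collagen values was not tested.

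**Figure D4:**
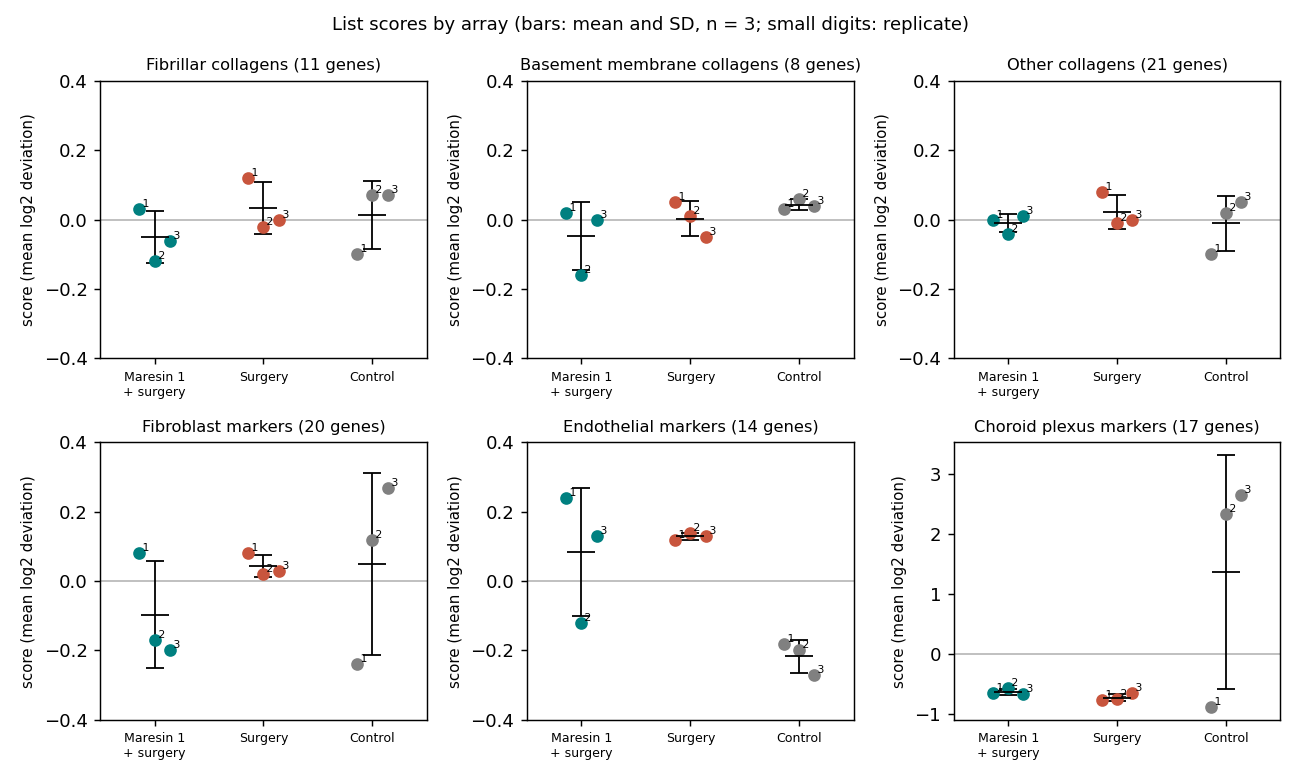
Mean log2 deviation from the genes' own means (vertical axis) of collagen classes and cell type marker lists in each array, Maresin 1 with surgery left, surgery in the middle and control right; bars give the mean and SD of 3 arrays, and the choroid plexus panel has its own axis range. The choroid plexus score was 2.33 and 2.65 in control replicates 2 and 3 and -0.89 in control replicate 1, while the scores of the fibrillar, basement membrane and other collagens stayed between -0.16 and 0.12.

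With control replicate 1 as the sole control, the median of the fibrillar genes for surgery against control was 0.15 and that of the other collagens 0.15, against 0.03 and 0.03 with all controls. For Maresin 1 with surgery against control they were 0.03 and 0.08, against -0.05 and -0.01 with all controls. Without quantile normalisation the fibrillar and other medians turned to -0.08 and -0.08 for surgery against control and to 0.01 and 0.02 for Maresin 1 with surgery against surgery. The basement membrane median for Maresin 1 with surgery against surgery was 0.01 without Maresin 1 replicate 2. No collagen was called in any of these cases. The settings of the control arrays for subclasses, lists and partner genes were chosen after seeing the data.

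Fibroblast markers had summed signals of 3686 to 4938 in the Maresin 1 arrays, 4280 to 4662 in the surgery arrays and 3858 to 6384 in the control arrays. The median difference of these 20 genes was 0.09 for surgery against control (14 higher, 6 lower, and 0.01 without control replicate 1) and -0.16 for Maresin 1 with surgery against surgery (5 higher, 15 lower), with 0 called. A summed signal is weighted towards bright genes. Of the fibroblast markers, Igf2 and Slc13a4 stood higher in control replicates 2 and 3 than in every other array. They differed by -0.77 and -1.02 for surgery against control, and by 0.45 and 0.56 against control replicate 1 alone. Dcn, another bright marker, was lower in control replicate 2 than in control replicate 1. The control range of the sums thus rests in part on Igf2 and Slc13a4, and the part of choroid plexus in it was not tested. Dcn and Lum belong to both the fibroblast and the fibril partner lists. For vessel cells, 14 of 14 endothelial markers had a higher mean in surgery than in control arrays, by a median of 0.34, with 0 called. In this comparison 41.6% of all genes were lower. An unadjusted p under 0.05 was found for 11 of the 14, beside 6.21% of all genes. The groups did not overlap in 11 of the 14, beside 11.5% of all genes. Col4a1 differed by 0.02 and Col4a2 by -0.05 in the same comparison. Endothelial sums were 3821 to 4990 in the Maresin 1 arrays, 4562 to 4706 in the surgery arrays and 3375 to 3603 in the control arrays. Pericyte and smooth muscle markers were higher in 13 of 14 for surgery against control (median 0.24), where 41.6% of all genes were lower, with 0 called. For Maresin 1 with surgery against surgery 14 of 14 were lower (median -0.10), beside 58.3% of all genes, with 0 called. For Maresin 1 with surgery against control 9 were higher and 5 lower (median 0.06). In that comparison 14 of 14 endothelial markers were higher (median 0.33), while 51% of all genes were lower, and 0 of either list were called. Pericyte and smooth muscle sums were 3341 to 4322 in the Maresin 1 arrays, 4062 to 4238 in the surgery arrays and 3274 to 3549 in the control arrays. No test compared the marker lists with the collagens. Ependymal, astrocyte and hippocampal neuron markers had medians of 0, 0.09 and -0.03 for surgery against control, with 0 called in each. Without control replicate 1 these were -0.17, 0.03 and -0.04.

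Chains that share a helix were followed through the 9 arrays in 8 pairs, each by an exact two-sided permutation test adjusted over the 8. Col4a1 and Col4a2 had Pearson r = 0.757 (exact permutation p = 0.0184, adjusted 0.0737) and Spearman rho = 0.85 (exact permutation p = 0.00607, adjusted 0.0486), and r was 0.952 without the 2 arrays farthest from the median of Col4a1. Col1a1 and Col1a2 had r = 0.764 (exact permutation p = 0.0177, adjusted 0.0737) and rho = 0.7 (exact permutation p = 0.0433, adjusted 0.173), and r was 0.481 without the 2 farthest arrays, both of Maresin 1, so the relation rests in part on those. Col6a1 and Col6a2 gave r = -0.212 (exact permutation p = 0.59). The other pairs had r from -0.16 to 0.723, and the largest of them, between the dim genes Col4a5 and Col4a6, was 0.236 without its 2 farthest arrays. The arrays share the normalisation, and with 9 of them the precision is low.

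**Figure D5:**
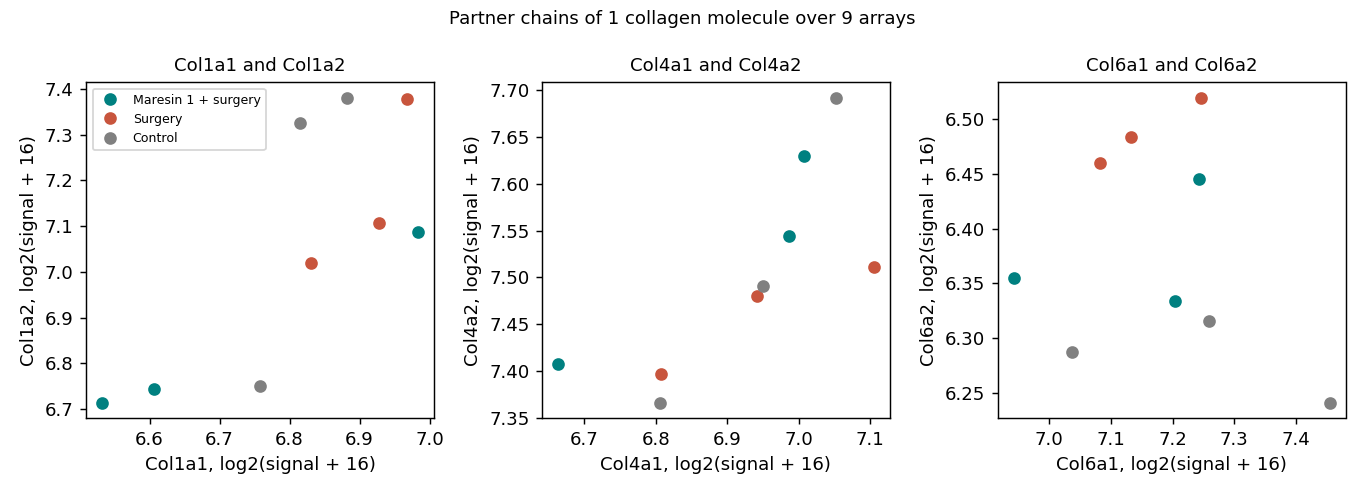
Levels (log2 of signal plus 16) of partner chains of a collagen molecule plotted against each other, 1 point per array, coloured by group. Pearson r was 0.764 for Col1a1 and Col1a2, 0.757 for Col4a1 and Col4a2 and -0.212 for Col6a1 and Col6a2. No test compared the pairs.

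Genes that make, cross-link, bind or break down collagen were read from 5 lists, and 0 genes of any list passed the test in any comparison. Of 24 measured genes of collagen making and processing, 13 were higher and 11 lower for surgery against control (median 0.01, with 9 higher and 15 lower without control replicate 1), and 9 were higher and 15 lower for Maresin 1 with surgery against surgery (median -0.03). Pcolce, the enhancer of procollagen C-proteinase, had levels of 7.38, 6.70 and 6.75 in the Maresin 1 arrays, 7.28, 7.26 and 7.09 in the surgery arrays and 6.79, 8.38 and 8.74 in the control arrays. Control replicates 2 and 3, the arrays with high choroid plexus markers, stood above all other arrays for Pcolce, as they did for its relative Pcolce2, and the part of choroid plexus in this was not tested. The differences for surgery against control were -0.76 (SE 0.37, adjusted p = 0.794) for Pcolce, -0.68 (SE 0.20, adjusted p = 0.64) for Pcolce2, -0.32 (SE 0.12, adjusted p = 0.754) for the prolyl hydroxylase P3h2 and -0.18 (SE 0.09, adjusted p = 0.796) for P3h1. Against control replicate 1 alone they were 0.42, -0.09, -0.01 and -0.23 in that order, so all but the last rest on control replicates 2 and 3.

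Of 13 measured genes of cross-linking and fibril partners, 9 were higher and 4 lower for surgery against control (median 0.06, and 0 without control replicate 1), and 3 higher and 10 lower for Maresin 1 with surgery against surgery (median -0.10). Loxl1, a lysyl oxidase that links collagen and elastin, had levels of 6.97, 6.88 and 6.59 in the Maresin 1 arrays, 7.05, 6.69 and 6.98 in the surgery arrays and 7.15, 7.35 and 7.41 in the control arrays. Every control array was above every surgery and Maresin 1 array, and the difference was -0.39 (SE 0.12, adjusted p = 0.677) for surgery against control and -0.49 (SE 0.12, adjusted p = 0.162) for Maresin 1 with surgery against control. Fmod, a small proteoglycan on fibrils, had levels of 6.65, 6.26 and 6.45 in the Maresin 1 arrays, 6.99, 6.98 and 6.93 in the surgery arrays and 5.82, 6.64 and 7.31 in the control arrays. The Maresin 1 arrays lay below the surgery arrays, by -0.51 (SE 0.26, adjusted p = 0.859), and the control arrays covered both. Bgn, another such proteoglycan, differed by 0.21 (SE 0.11, adjusted p = 0.796) and the lysyl oxidase Loxl4 by -0.35 (SE 0.18, adjusted p = 0.796) for surgery against control. Against control replicate 1 alone Loxl4 differed by -0.02 and Bgn by 0.28.

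Among 9 measured receptors (6 higher and 3 lower for surgery against control, 4 and 5 without control replicate 1), Itga1, the collagen-binding integrin subunit, differed by 0.30 (SE 0.10, adjusted p = 0.708) for surgery against control. Its partner Itgb1 differed by 0.16 (SE 0.06, adjusted p = 0.321) for Maresin 1 with surgery against control, and Ddr1, a collagen-activated kinase, by -0.17 (SE 0.08, adjusted p = 0.796) and Itga10, at background level, by -0.23 (SE 0.12, adjusted p = 0.796) for surgery against control. Against control replicate 1 alone Itga1 differed by 0.14, Ddr1 by -0.07 and Itga10 by -0.06. Of 10 measured genes of breakdown and its inhibitors (5 higher and 5 lower for surgery against control, 3 and 7 without control replicate 1), the membrane collagenase Mmp14 differed by -0.27 (SE 0.14, adjusted p = 0.796) and the metalloproteinase inhibitor Timp1, at background level, by 0.26 (SE 0.11, adjusted p = 0.781) for surgery against control. Against control replicate 1 alone Mmp14 differed by 0.04, so its difference rests on control replicates 2 and 3, and Timp1 differed by 0.40. Timp3, an inhibitor bound to matrix, differed by -0.17 (SE 0.10, adjusted p = 0.859) and Mmp8, at background level, by -0.17 (SE 0.09, adjusted p = 0.859) for Maresin 1 with surgery against surgery. Of 13 measured laminins, nidogens and perlecan, 8 were higher and 5 lower for surgery against control (median 0.09), and 3 higher and 10 lower for Maresin 1 with surgery against surgery (median -0.05). Lamc3, a laminin chain of meninges and vessels, had levels of 6.52, 6.24 and 6.41 in the Maresin 1 arrays, 6.81, 6.76 and 6.57 in the surgery arrays and 6.51, 6.66 and 6.58 in the control arrays. Every Maresin 1 array was below every surgery array, with a difference of -0.33 (SE 0.10, adjusted p = 0.859). Hspg2, perlecan, and the laminin chain Lama5 differed by -0.24 (SE 0.11, adjusted p = 0.794) and -0.32 (SE 0.14, adjusted p = 0.783) for surgery against control. Against control replicate 1 alone these were 0.01 and 0.07, so both rest on the control arrays with high choroid plexus markers. Lama1 differed by -0.21 (SE 0.10, adjusted p = 0.859) for Maresin 1 with surgery against surgery.

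Genes whose levels ran most like 2 collagens over the 9 arrays were sought among 13362 genes above background, as a description. For Col1a2 they were 5930403L14Rik (Pearson r = 0.984), Atp7b (0.97), Slco1a5 (0.963), Gas1 (0.951) and Nek8 (0.949). For Col4a1 they were Pnpla3 (0.906), Zfyve28 (0.9), Ppp1r12c (0.895), B930095G15Rik (0.891) and Ltk (0.876). The 9 arrays share their normalisation and span all groups. None of the listed endothelial or fibroblast markers was among the 5 for either gene. With only 5 genes taken of 13362, this cannot bear on which cells made the RNA.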

How the data were processed

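Hippocampal RNA of 9 mice was hybridised to Affymetrix arrays from 6 µg of total RNA each. The authors deposited linear intensity values for 35556 probe sets, which the submitters' processing notes credit to Affymetrix Expression Console, with no version or algorithm named. The number of arrays limits the precision. Groups came from the titles. Of the probe sets, 21218 name 1 gene, 1881 several and 12457 none; 21185 matched the RefSeq gene table. Arrays were quantile normalised, 16 was added, log2 taken, and the highest-mean probe set with 1 gene was kept per gene (1386 genes had more than 1). limma 3.58.1 in R 4.3.3 (lmFit and eBayes with a trend) was fitted to all 9 arrays, without a replicate block, with Benjamini-Hochberg adjustment over 18820 genes and a threshold of 0.05. The fit was tested on simulated data. Collagens above the olfactory receptor level are named with values in every array, the rest by range; of each partner list the 4 genes with the smallest p are named, and for Col1a2 and Col4a1 the 5 most correlated genes. The members, lists and tests were chosen with earlier results of these data known. Alternatives were the normalisation, the added constant, the probe set rule, the variance trend, the filter on dim genes, the replicate block and leaving out arrays.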

Additional observations from a re-analysis of the deposited data

How the results depend on the processing

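No collagen gene was called in any comparison under any of 19 alternatives. Of 1710 values of single genes under them, 51 moved by at least the spread within groups and 137 changed sign, all on the side that misses the threshold. Many of these values could not move. The variance trend, the dim gene filter, the replicate block and leaving out an array outside the comparison do not change a fitted difference. The counts therefore overstate how well the values held. Without quantile normalisation the class medians (basement membrane, fibrillar, other) were -0.12, -0.08 and -0.08 for surgery against control and -0.01, 0.01 and 0.02 for Maresin 1 with surgery against surgery. With control replicate 1 as the sole control the fibrillar and other medians were 0.15 and 0.15 for surgery against control and 0.03 and 0.08 for Maresin 1 with surgery against control. With dim genes left out the basement membrane median was -0.02 for Maresin 1 with surgery against control. Leaving out 1 array at a time gave -0.05 to 0.06 for fibrillar collagens in surgery against control and -0.12 to -0.02 in Maresin 1 with surgery against control, -0.04 to 0.07 for other collagens in surgery against control, -0.12 to 0.01 for basement membrane collagens in Maresin 1 with surgery against surgery (the highest without Maresin 1 replicate 2) and -0.07 to 0.04 for other collagens in Maresin 1 with surgery against control. The cause was not tested. Scaling to one median moved the median of all genes to 0.10 for surgery against control and -0.09 for Maresin 1 with surgery against surgery. Over all genes, the count called was 0 for surgery against control, and 0 to 169 under the alternatives (42 without quantile normalisation, 37 scaled to one median), and 16 for Maresin 1 with surgery against control, and 0 to 245 under the alternatives. Both were highest without control replicate 1, a setting that keeps only the control arrays with high choroid plexus markers. Same-numbered arrays did not deviate together (correlations -0.23 to 0.0247 over 9 pairs), which gave no sign that the numbers pair them. These correlations depend on each other and rest on few arrays, so they cannot show that there is no pairing. With the replicate block 0 collagens were called.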
